A study of Mus musculus with 48 samples.

Results

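A set of 10 genes of the extracellular matrix was followed through the dentate gyrus after kainate. They are the hemicentin Hmcn2, the adhesive and matricellular glycoproteins Fn1, Tnc, Thbs1 and Thbs2, the small leucine-rich proteoglycans Bgn, Dcn and Lum, the collagen-binding protein Sparc and the crosslinking enzyme Lox. These 10 genes were chosen by name from the 55357 rows of the count table, with earlier results of the same data known, so their kainate against saline values are given as a description and not as a test of the choice. All 10 were among the 21390 genes with enough counts to be tested.

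RNA came from the dorsal dentate gyrus of 24 wild-type C57BL/6J mice, aged 6 to 8 weeks in the sample records and 8 to 10 weeks in the study's methods, with 2 males and 2 females in each group. Kainate, a glutamate receptor agonist, or saline was injected into the hippocampus on 1 side under isoflurane, and tissue was taken 3, 7 or 14 days after injection. Seizures were scored by behaviour without EEG: every kainate mouse had at least 1 observed convulsive seizure and no saline mouse showed any. The saline groups share the anaesthesia, the needle track and the post-operative analgesia. The injected side is called the epileptogenic zone (EZ) and the opposite side the peri-ictal zone (PIZ). Each mouse gave 1 EZ and 1 PIZ library, which makes 12 groups of 4 libraries.

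The extracellular matrix of the adult brain has little fibrillar collagen and fibronectin outside the vessel walls and the meninges. Matricellular proteins such as tenascin-C, thrombospondins and Sparc are secreted into it without building its framework, and they bind integrins, growth factors or collagen. Astrocytes are a known source of thrombospondins and tenascin-C, which are high in development and after injury. Small leucine-rich proteoglycans bind collagen fibrils, lysyl oxidase crosslinks collagen and elastin, and hemicentins are very large relatives of the fibulins that sit in and between basement membranes.

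Depth was similar over the 48 libraries, from 17762656 to 25712975 counts with a median of 22108562.5. The markers of granule cells, among them Prox1 and C1ql2, were present in every library, summing to 125 to 913 CPM, and markers of CA1 pyramidal cells, of the neighbouring hippocampal field, summed to 56.2 to 544 CPM. CPM are counts per 1000000 counts of the library, with that total scaled by the trimmed mean of M values (TMM). In bulk tissue, more cells of a type and more RNA per cell cannot be told apart.

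In GRCm39, Hmcn2 spans bases 31204263 to 31350750 of the plus strand of chromosome 2, which also carries Thbs1 at 117941974 to 117957616. Fn1 lies at 71624673 to 71692419 of chromosome 1, Tnc at 63878014 to 63965443 of chromosome 4, Thbs2 at 14885761 to 14914528 of chromosome 17, and Sparc at 55285317 to 55314067 of chromosome 11, all on the minus strand. Bgn lies on the plus strand of the X chromosome at 72527208 to 72539541. Dcn, at 97315275 to 97358155 of chromosome 10, and Lum, at 97400990 to 97408577, are neighbours on the same strand with 42834 bases between them. The counts were made over the exons of each gene, so the values below do not separate transcripts of 1 gene.

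The promoters of Hmcn2, Tnc and Bgn, the 3 members that passed a test of the difference between the sides (given below), are shown to let the start regions be compared. They are the 250 bases before the annotated start in RefSeq (build GRCm38.p6, which is not the GRCm39 of the counts, chr2:31314082-31314331 on the plus strand, chr4:64047016-64047265 on the minus strand and chrX:73483351-73483600 on the plus strand), written 5′ to 3′ with matches to 4 motifs in capitals. The motifs, each searched on both strands, were TATAAA (the box bound by TBP), TGANTCA (AP-1), CATTCC (TEAD) and GGGCGG (GC box).
Hmcn2: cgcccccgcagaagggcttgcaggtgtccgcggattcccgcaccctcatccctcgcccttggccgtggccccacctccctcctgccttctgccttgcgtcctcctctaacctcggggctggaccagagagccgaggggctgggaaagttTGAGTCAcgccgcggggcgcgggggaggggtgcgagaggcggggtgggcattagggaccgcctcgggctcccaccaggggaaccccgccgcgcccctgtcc
Tnc: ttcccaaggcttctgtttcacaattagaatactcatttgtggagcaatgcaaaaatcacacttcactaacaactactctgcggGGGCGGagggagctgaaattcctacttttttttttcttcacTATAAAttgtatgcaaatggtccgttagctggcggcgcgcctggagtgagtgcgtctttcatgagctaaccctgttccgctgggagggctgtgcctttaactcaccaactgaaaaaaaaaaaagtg
Bgn: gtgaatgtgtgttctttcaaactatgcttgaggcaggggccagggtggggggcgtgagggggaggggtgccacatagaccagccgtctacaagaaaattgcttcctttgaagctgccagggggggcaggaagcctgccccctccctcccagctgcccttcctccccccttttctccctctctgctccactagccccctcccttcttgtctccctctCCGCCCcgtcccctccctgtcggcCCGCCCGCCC
The Hmcn2 promoter was 72.4% G and C with 22 CG dinucleotides, the Bgn promoter 64.4% with 7, and the Tnc promoter 44.8% with 8. Over the 27026 promoters of the table the median was 52.0% with 6 CG dinucleotides. The capitals in Hmcn2 are an AP-1 match, TGAGTCA, 101 to 95 bases before the start, and 6.85% of all promoters hold such a match. Those in Tnc are a GC box 167 to 162 bases and a TATAAA 126 to 121 bases before the start, held by 32.96% and 12.98% of all promoters. Those in Bgn are 3 GC boxes on the opposite strand, of which the 2 nearest to the start overlap. No promoter of these genes held CATTCC, which is in 12.64% of all promoters. Of the other members, Thbs2 and Sparc were also in the table, and Thbs2 held a TATAAA match on the opposite strand. These letter matches are a description and say nothing of binding.

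To compare levels between genes, CPM were divided by the summed exon length in kilobases (RPKM). In the EZ of saline mice at day 3, Sparc stood far above the rest at 66.1 ± 9.88 RPKM (SD, n = 4), and the order below it was Fn1 at 4.07, Bgn at 2.89, Tnc at 1.45, Thbs2 at 0.738, Dcn at 0.715, Lum at 0.553, Thbs1 at 0.365, Lox at 0.114 and Hmcn2 at 0.05 RPKM. In that group the levels of Thbs2 and Dcn, and those of Dcn and Lum, differed by less than the SD of Dcn (0.249), and the other neighbours in the order differed by more than either SD. In the EZ of kainate mice at day 3 the order of levels was Sparc at 162, Fn1 at 28.6, Bgn at 25.7, Tnc at 21.03, Thbs1 at 13.2, Dcn at 3.55, Lum at 2.81, Thbs2 at 1.97, Hmcn2 at 1.39 and Lox at 0.570 RPKM. There the steps from Fn1 to Bgn, Bgn to Tnc, Tnc to Thbs1, Dcn to Lum and Lum to Thbs2 were smaller than the SD of 1 of the pair. Hmcn2 was the lowest member per length in 11 of the 12 groups and stood above Lox in the EZ of kainate mice at day 3. The summed level of the 10 genes in the EZ was 1678 ± 561 CPM in kainate mice against 400.2 ± 53.8 CPM in saline mice at day 3, 1925 ± 595 against 294 ± 28.7 CPM at day 7, and 699 ± 843 against 252 ± 16.0 CPM at day 14 (SD, n = 4). The SD at day 14 exceeded the mean.

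**Figure D1:**
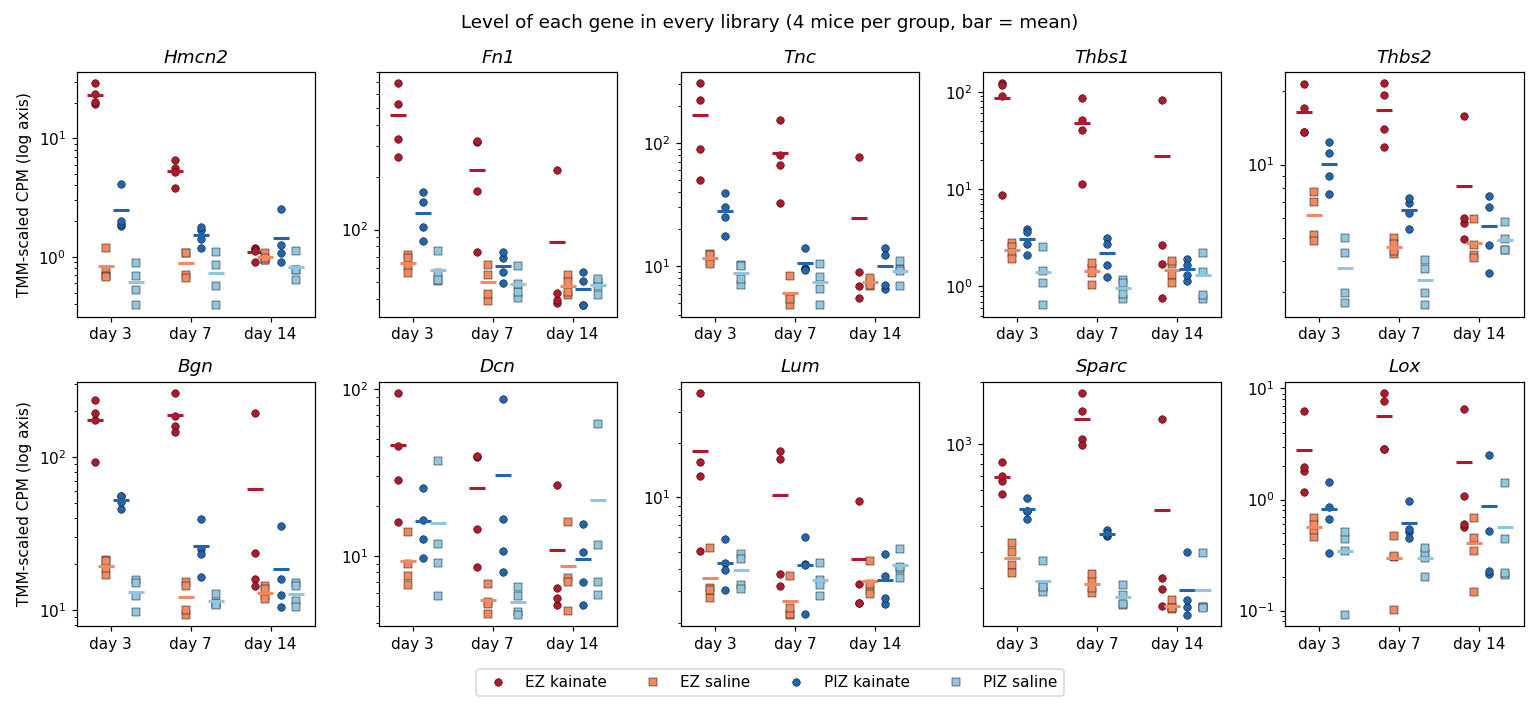
TMM-scaled CPM on a log axis for each gene in all 48 libraries, by day, side and injection, with a bar at the mean of the 4 mice. In the EZ, kainate libraries (red circles) lie above saline libraries (orange squares) at days 3 and 7 except for some values of Lum, and at day 14 a single kainate library lies high for 9 genes, while Hmcn2 lies at the level of saline.

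In the EZ, Hmcn2 was upregulated at day 3, was lower but still upregulated at day 7 and was near the saline level at day 14. Values of kainate mice are given here and below in the order of mice 38, 30, 44 and 42 at day 3, mice 23, 26, 21 and 35 at day 7 and mice 27, 36, 14 and 40 at day 14. In the EZ at day 3 the kainate mice had 23.7, 19.3, 20.1 and 29.3 CPM and the saline mice 0.765, 0.692, 1.19 and 0.682 CPM. Every kainate mouse was far above every saline mouse, and the groups lay 4.78 ± 0.30 apart on the log2 scale (standard error of the fit), or 27.5-fold. At day 7 the kainate mice had 3.77, 5.58, 5.21 and 6.55 CPM against 0.706, 1.09, 0.663 and 1.08 CPM in saline mice, a log2 change of 2.57 ± 0.29. At day 14 the kainate mice, at 1.18, 0.899, 1.16 and 1.13 CPM, overlapped the saline mice at 0.940, 0.949, 1.09 and 0.984 CPM, with a log2 change of 0.14 ± 0.30. The EZ change of Hmcn2 fell by 2.21 on the log2 scale from day 3 to day 7 and by 2.42 from day 7 to day 14, and each of these steps passed the thresholds (adjusted p under 0.01 and a fold over 1.5), which 0.145% and 0.271% of the genes tested passed. No other member passed them for either step. Both calls of Hmcn2 were lost when only the compared groups were fitted (-2.21 and -2.42), and the 31 genes behind the first share became 8 when saline mouse 20 was left out and 83 when kainate mouse 23 was. The first step did not pass without kainate mouse 42 (-2.08, the nearest to 0 of these values) or without saline mouse 29, 37, 33, 34 or 41, and the second did not in 11 of 16 fits with 1 mouse left out. Over the 16 fits the second step ranged from -2.55 to -2.30. With mouse 27 left out, 9 members passed for the second step in place of 1, and 4087 of all genes in place of 58. The 58 became 2333 without kainate mouse 23 and 990 without kainate mouse 26, and at most 7 without any 1 of the other 13 mice.

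In the PIZ the Hmcn2 level was lower and flatter. Kainate mice had 1.82, 4.14, 1.88 and 2.00 CPM at day 3 against 0.389, 0.520, 0.882 and 0.683 CPM in saline mice, a log2 change of 1.98 ± 0.30 with no overlap. The high value belonged to mouse 30. At day 7 the kainate mice had 1.68, 1.42, 1.18 and 1.78 CPM against 0.396, 0.857, 1.10 and 0.571 CPM, and at day 14 they had 2.53, 0.897, 1.09 and 1.26 CPM against 0.770, 1.13, 0.636 and 0.770 CPM. The log2 changes were 1.05 ± 0.31 and 0.79 ± 0.30 and did not pass the thresholds, and at day 14 the groups overlapped and the value was 0.37 without kainate mouse 27. The EZ change was larger than the PIZ change by 2.80 ± 0.42 on the log2 scale at day 3 and by 1.52 ± 0.42 at day 7, and at day 14 the difference was -0.64 ± 0.43. These Hmcn2 values rest on few reads in saline mice, between 8 and 27 counts in a library.

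Fibronectin, Fn1, which binds integrins and collagen and is abundant in plasma and vessel walls, was upregulated in the EZ at day 3 and day 7. At day 3 the kainate mice had 692, 332, 260 and 525 CPM and the saline mice 71.1, 61.7, 56.4 and 68.6 CPM, a log2 change of 2.81 ± 0.40. At day 7 they had 74.0, 166, 318 and 323 CPM against 38.9, 42.9, 62.9 and 55.2 CPM (2.14 ± 0.39). The groups did not overlap on either day, and kainate mouse 23 was close to the highest saline mouse at day 7. In the PIZ the means were 124 ± 35.9 CPM against 58.4 ± 11.8 CPM at day 3 (SD, n = 4), with no overlap, and 62.2 ± 11.2 against 48.9 ± 9.50 CPM at day 7, with overlap. Neither PIZ difference passed the thresholds.

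Tenascin-C, Tnc, a matricellular glycoprotein of glia, had a wider spread among kainate mice. In the EZ at day 3 they had 306, 89.9, 50.5 and 224 CPM against 12.5, 10.9, 12.3 and 10.5 CPM in saline mice, a log2 change of 3.86 ± 0.56. At day 7 they had 32.6, 66.5, 79.4 and 152 CPM against 4.80, 8.29, 5.67 and 5.42 CPM (3.77 ± 0.57). Every kainate mouse was above every saline mouse on both days. In the PIZ at day 3 the kainate mice had 30.5, 38.9, 25.2 and 17.6 CPM against 7.05, 10.2, 10.03 and 7.93 CPM, without overlap, but the log2 change of 1.67 ± 0.53 did not pass the thresholds. At day 7 the PIZ values of Tnc overlapped, with means of 10.6 ± 2.22 and 7.50 ± 2.36 CPM (SD, n = 4).

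The thrombospondins Thbs1 and Thbs2, secreted glycoproteins that promote synapse formation and, for Thbs1, activate TGF-β, are given in turn. Thbs1 in the EZ at day 3 was at 124, 119, 8.80 and 90.9 CPM in kainate mice and at 2.79, 2.54, 2.21 and 1.90 CPM in saline mice. Mouse 44 was far below the other kainate mice and still above every saline mouse, and the log2 change was 5.18 ± 0.86, with a larger standard error than for any other member on that contrast. At day 7 Thbs1 was at 11.3, 40.7, 50.9 and 87.1 CPM against 1.04, 1.39, 1.53 and 1.75 CPM (5.06 ± 0.88). In the PIZ, Thbs1 reached at most 3.85 CPM in any kainate mouse, and its log2 changes were 1.12 ± 0.87 at day 3 and 1.21 ± 0.95 at day 7. Thbs2 in the EZ at day 3 was at 21.5, 13.6, 17.1 and 13.6 CPM against 7.70, 5.12, 4.86 and 7.01 CPM, a log2 change of 1.42 ± 0.26, and in the PIZ it was at 9.01, 12.4, 11.2 and 7.58 CPM against 2.96, 4.33, 4.97 and 2.69 CPM, a log2 change of 1.43 ± 0.27. At day 3 the changes of Thbs2 on the 2 sides thus differed by -0.01 ± 0.35, and those of Thbs1 by 4.05 ± 1.19, neither of which passed the thresholds. At day 7 the Thbs2 log2 changes were 1.86 ± 0.27 in the EZ and 0.95 ± 0.28 in the PIZ.

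Biglycan, Bgn, a collagen-binding proteoglycan that can also act on Toll-like receptors, was higher in every EZ kainate mouse than in every saline mouse on all 3 days, but at day 14 the groups nearly met, with the lowest kainate mouse at 14.37 CPM and the highest saline mouse at 14.29 CPM. At day 3 the kainate mice had 235, 173, 93.4 and 193 CPM against 21.4, 16.8, 18.9 and 20.9 CPM, a log2 change of 3.15 ± 0.49. At day 7 they had 159, 147, 184 and 263 CPM against 9.28, 15.2, 10.1 and 14.3 CPM (3.94 ± 0.51). In the PIZ Bgn was at 45.8, 56.0, 55.9 and 50.9 CPM against 15.8, 15.04, 9.65 and 12.3 CPM at day 3 (1.98 ± 0.47) and at 39.5, 25.0, 16.5 and 23.2 CPM against 11.2, 10.98, 12.7 and 10.8 CPM at day 7 (1.19 ± 0.47). The PIZ groups were apart on both days, and the thresholds were passed at day 3. The day 3 call was lost without saline mouse 18 (1.86) or saline mouse 41.

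Decorin, Dcn, and lumican, Lum, which shape collagen fibrils, varied widely among kainate mice. In the EZ at day 3 Dcn was at 95.1, 28.6, 16.0 and 45.5 CPM in kainate mice against 8.96, 6.73, 7.59 and 14.0 CPM in saline mice (log2 change 2.31 ± 0.71), and Lum at 38.3, 13.1, 5.01 and 15.7 CPM against 2.75, 3.14, 3.05 and 5.26 CPM (2.35 ± 0.46, and 1.67 without mouse 38). At day 7 Dcn was at 8.62, 14.6, 39.2 and 39.7 CPM against 5.32, 6.77, 4.49 and 5.16 CPM, and Lum at 3.21, 3.74, 18.2 and 16.4 CPM against 3.67, 2.21, 2.25 and 2.42 CPM. The day 7 values of both genes fell into mice 21 and 35 at high and mice 23 and 26 at low levels, and Lum overlapped saline on both days. Both genes passed the thresholds in the EZ on both days. The Dcn call was lost at day 3 without kainate mouse 38 (1.69) or 42, or saline mouse 29, 37 or 18, and at day 7 without kainate mouse 21 (1.95) or 35 (1.94), or without any 1 of the 4 saline mice. With the mouse as a block, in a limma fit that also changes the test, Dcn did not pass on either day (2.08 and 1.99). Nor did Lum at day 7 (1.62) or Lox at day 3 (1.99).

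In the PIZ, Dcn was set by single libraries that were not all from kainate mice. Kainate mouse 21 had 87.5 CPM at day 7, where the other kainate mice had 8.09, 16.7 and 10.7 CPM. Saline mouse 18 had 36.9 CPM at day 3 and saline mouse 39 had 61.9 CPM at day 14, where the other saline mice of their groups were at most at 11.8 CPM. These 3 libraries had the lowest summed granule cell markers of their groups, at 300, 433 and 392 CPM, against medians of 563, 676 and 795 CPM. Their meningeal fibroblast markers (11 genes, among them Col1a1 and Slc6a13) were not raised, at 63.6, 46.1 and 43.1 CPM against group medians of 68.9, 49.7 and 52.8 CPM. The Dcn log2 change in the PIZ at day 3 was 0.02 ± 0.69 with saline mouse 18 and 0.86 without it, at day 7 it was 2.52 ± 0.74 with mouse 21 and 1.15 without it, and at day 14 it was -1.18 ± 0.70 with saline mouse 39 and 0.22 without it. None of the PIZ Dcn differences passed the thresholds. Lum was at 6.02, 4.55 and 5.19 CPM in the same libraries, the highest of its group in mice 21 and 39 and the second highest in mouse 18, where the other libraries of these groups were at 2.25 to 4.26, 3.10 to 4.85 and 3.58 to 4.13 CPM. The part of the granule cell markers in these Dcn values was not tested.

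Sparc, a collagen-binding matricellular protein made by glia and vessels, was the member with the most reads. In the EZ at day 3 it was at 824, 667, 576 and 703 CPM in kainate mice against 331, 259, 237 and 300.3 CPM in saline mice, a log2 change of 1.30 ± 0.35. At day 7 it was at 1064, 996, 1784 and 1449 CPM against 190, 200.1, 216 and 235 CPM, a log2 change of 2.65 ± 0.37. The kainate libraries at day 7 were all above those at day 3. In the PIZ at day 3 Sparc was at 476, 473, 433 and 551 CPM against 203, 192, 270 and 203 CPM (1.16 ± 0.35), and at day 7 at 384, 358, 361 and 370 CPM against 186, 166, 207 and 167 CPM (1.02 ± 0.35). The groups did not overlap on either day and the spread within groups was small, but the thresholds were not passed. With the mouse as a block, Sparc passed in the PIZ at day 3 (1.17). The EZ call at day 3 was lost without kainate mouse 38 (1.204) or saline mouse 18 or 37.

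Lysyl oxidase, Lox, was rarer. In the EZ at day 3 it was at 6.31, 1.80, 1.18 and 1.96 CPM in kainate mice against 0.675, 0.461, 0.530 and 0.585 CPM in saline mice, a log2 change of 2.31 ± 0.69. At day 7 it was at 2.86, 2.85, 9.17 and 7.72 CPM against 0.471, 0.304, 0.102 and 0.310 CPM, a log2 change of 4.22 ± 0.76, which is 18.6-fold. As with Dcn and Lum, mice 21 and 35 held the high values at day 7, and marker levels that split the same way are given below. In saline mice Lox rested on 2 to 15 counts in an EZ library. The day 3 call was lost without kainate mouse 38 (1.54) or without any 1 of the 4 saline mice of day 3. In the PIZ its mean was under 1 CPM in every group and no difference passed the thresholds, and the day 14 value of 0.59 ± 0.75 was -0.86 without kainate mouse 27 and 1.57 without saline mouse 24.

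Counted over the members, all 10 were upregulated in the EZ at day 3 and all 10 at day 7, where 24.7% and 32.5% of all genes tested passed in either direction and 16.1% and 20.6% passed upwards. At day 14 in the EZ it was 3 of 10, Thbs1, Bgn and Sparc (2.36% of all genes in either direction, 2.32% upwards). In the PIZ it was 3 of 10 at day 3, Hmcn2, Thbs2 and Bgn (8.69% and 7.12%), 0 at day 7 (0.201% and 0.15%) and 0 at day 14 (0.014% and 0.00935%). More members, and more of all genes, passed in the PIZ at day 3 with the compared groups alone and with DESeq2, as given in the last section. The 43 genes behind the PIZ share of day 7 became 76 without kainate mouse 21, 11 without kainate mouse 26, and 9, 7, 7 and 13 without saline mice 20, 33, 34 and 89, and they were 195 with DESeq2, 154 with the compared groups alone and 24 with the mouse as a block. Since the members were chosen with these contrasts known, nothing is read from these shares. The median log2 change of the members was 2.58, 2.61 and 1.19 in the EZ and 1.2, 1.03 and 0.16 in the PIZ at days 3, 7 and 14, while that of all genes tested lay between 0.00 and 0.03. The zero counts are from edgeR. At an unadjusted p under 0.05 there were 5 members in the PIZ at day 7 and 1, Hmcn2, at day 14, where 3104 and 1277 of all 21390 genes were under it, and DESeq2 also called 0 on both days. Every kainate library was above every saline library for 9 members in the EZ at day 3 and 9 at day 7 (23.9% and 23.7% of all genes tested), for 1 at day 14 (4.58%), and in the PIZ for 6 at day 3 (17.1%), 7 at day 7 (7.63%) and 0 at day 14 (3.7%). Lum was the member that overlapped in the EZ at days 3 and 7.

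**Figure D2:**
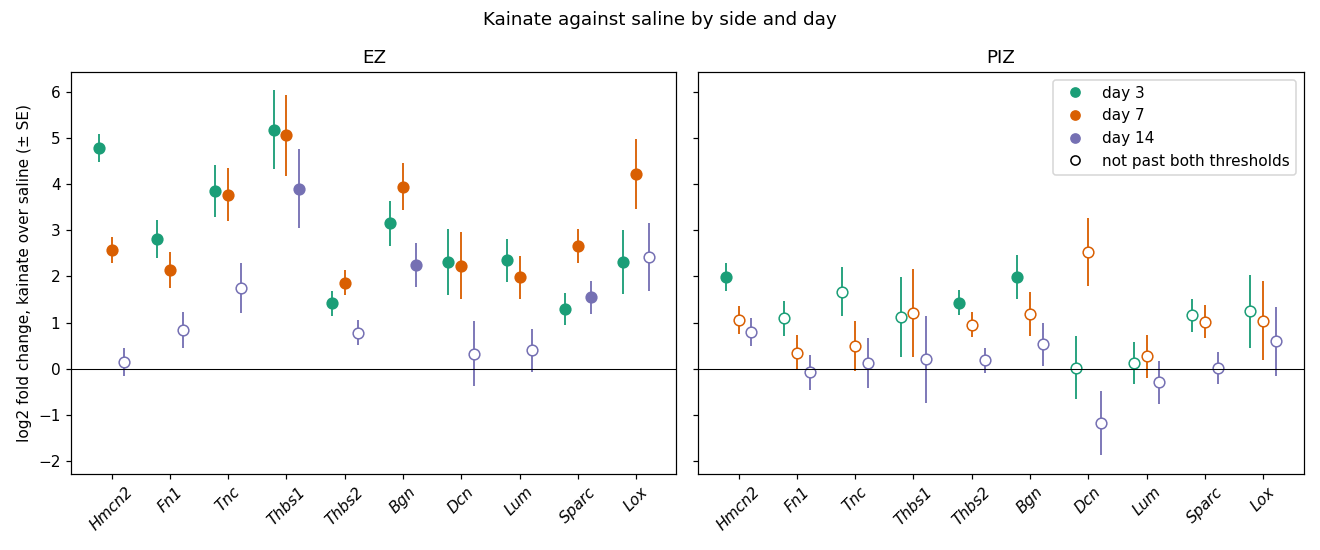
Log2 fold change of kainate over saline for the 10 genes in the EZ (left) and the PIZ (right) at days 3, 7 and 14, with bars of 1 standard error from the fit over all 48 libraries. Filled points passed both thresholds. Hmcn2 falls at each day in the EZ, Sparc, Bgn, Thbs2 and Lox have their highest point at day 7, and the PIZ values lie below 2 except for Dcn at day 7.

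Whether the kainate change differed between the sides was tested as the difference of the 2 changes. At day 3 it passed for Hmcn2 among the 10 members, at 2.80, while 0.0655% of all genes passed. These were 14 genes, which became 2 without saline mouse 29, 208 without kainate mouse 44, 98 with DESeq2 and 38 with the mouse as a block. With the compared groups alone the call of Hmcn2 was lost (2.77). At day 7 it passed for Hmcn2 at 1.52, Tnc at 3.27 ± 0.77 and Bgn at 2.75 ± 0.67, where 9.89% of all genes passed, and at day 14 for no member and no gene (0.0%) with edgeR, where 1562 genes had an unadjusted p under 0.05 and DESeq2 called 2. At day 14 there were 4 members at an unadjusted p under 0.05, Tnc, Thbs1, Bgn and Sparc, and DESeq2 called 0 members. For the other members at day 7 the difference was 3.85 ± 1.30 for Thbs1, 3.18 ± 1.19 for Lox, 1.79 ± 0.54 for Fn1, 1.71 ± 0.66 for Lum, 1.63 ± 0.50 for Sparc, 0.91 ± 0.38 for Thbs2 and -0.29 ± 1.004 for Dcn. The day 7 calls of Tnc and Bgn were lost without kainate mouse 21 (3.25 and 2.60) or 35 (2.75 and 2.50), or without any 1 of the 4 saline mice. That of Hmcn2 was lost in 7 of 8 such fits, with values from 1.15 without saline mouse 20 to 1.72 without saline mouse 34, and it was also lost with the mouse as a block (1.48). Over all genes, 2115 passed with all mice, 1 without mouse 21 and 3752 without mouse 23.

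In saline mice the needle side could be compared with the opposite side. None of the 10 genes passed on any day, and none did with the mouse as a block. The log2 EZ minus PIZ values ran from -0.77 for Dcn to 0.74 for Thbs1 at day 3, from -0.39 to 0.57 at day 7, and from -1.30 for Dcn to 0.25 at day 14. The smallest adjusted p was 0.598 with edgeR. At an unadjusted p under 0.05 there was 1 member at day 3, Thbs2 (0.72 ± 0.27), beside 1319 of all 21390 genes, and 0 at days 7 and 14, and DESeq2 called 0 on every day. Of all genes, 0.0281% passed at day 3 and 0.0% at days 7 and 14, where 325 and 517 had an unadjusted p under 0.05 and DESeq2 called 1 and 0. The day 3 share stands for 6 genes, which became 0 without any 1 of the 4 saline mice, 24 with DESeq2, 21 with the compared groups alone and 13 with the mouse as a block. Within mice, the EZ was above the PIZ in all 4 saline mice for Tnc, Thbs1, Bgn and Lox at day 3 (13.2% of all genes), for Thbs1, Thbs2 and Sparc at day 7 (8.5%) and for 0 members at day 14 (9.9%). Tnc at day 7 was the other way, with the EZ above the PIZ in 0 of 4 mice. The Dcn value at day 14 was that of saline mouse 39 described above.

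At day 14 the EZ kainate group was divided. Mouse 27 had 220 CPM of Fn1, 77.2 of Tnc, 82.5 of Thbs1, 193 of Bgn and 1331 of Sparc, whereas the other 3 kainate mice had 37.9 to 43.2, 5.54 to 9.05, 0.756 to 2.67, 14.4 to 23.5 and 164 to 224 CPM. It also had 15.9 CPM of Thbs2, 26.6 of Dcn, 9.61 of Lum and 6.48 of Lox, against 4.94 to 6.01, 5.09 to 6.46, 2.58 to 3.28 and 0.562 to 1.09 CPM. Mouse 27 was the highest of the group for all 10 members. Its ratio to the mean of the other 3 was 48.4 for Thbs1, 10.8 for Tnc, 10.7 for Bgn, 8.63 for Lox, 6.82 for Sparc, 5.45 for Fn1, 4.64 for Dcn, 3.41 for Lum, 2.86 for Thbs2 and 1.11 for Hmcn2. For 9 of the 10 members its value lay inside the range of the EZ kainate mice at day 7, and the exception was Hmcn2, at 1.18 CPM where the day 7 mice had 3.77 to 6.55 CPM. Of the other 3 mice, 1 had a single member inside that range, Lum in mouse 14.

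Without mouse 27 the EZ log2 changes at day 14 were 0.24 for Thbs1, 0.47 for Bgn, 0.25 for Sparc, 0.89 for Lox, -0.05 for Tnc, -0.24 for Fn1, -0.62 for Dcn, -0.28 for Lum, 0.23 for Thbs2 and 0.11 for Hmcn2, so that the 3 calls were lost, and 7 of all genes passed in place of 504. The day 14 calls of Thbs1, Bgn and Sparc were also lost without any 1 of the 4 saline mice, when only the compared groups were fitted, and with the mouse as a block (1.58, 1.32 and 0.93). Over all genes, 0 were called with the compared groups alone and 0 with the block, 109, 137, 30 and 59 without saline mice 24, 28, 31 and 39, 835, 893 and 793 without kainate mice 14, 36 and 40, and 746 with DESeq2. Mouse 27 also had the highest level of all 10 members in the PIZ kainate group at day 14, for example 35.2 CPM of Bgn against 10.5 to 15.9 CPM and 2.53 CPM of Hmcn2 against 0.897 to 1.26 CPM. In its EZ library the summed markers of microglia (7 genes) were at 3193 CPM against a group median of 684, those of astrocytes (7 genes) at 11372 against 5816, those of blood-derived or border macrophages (8 genes) at 36.98 against 13.1, and those of meningeal fibroblasts at 143 against 59.1 CPM. Its granule cell markers were the lowest of the group, at 362 CPM against 561, as were its CA1 pyramidal cell markers (5 genes), at 58.8 against 236, and its choroid plexus markers, at 2.67 against 16.8 CPM. Mural cell markers, at 274 against 169 CPM, and endothelial markers (8 genes), at 304 against 222 CPM, were the highest of the group. The part of these cells in the values of mouse 27 was not tested.

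**Figure D3:**
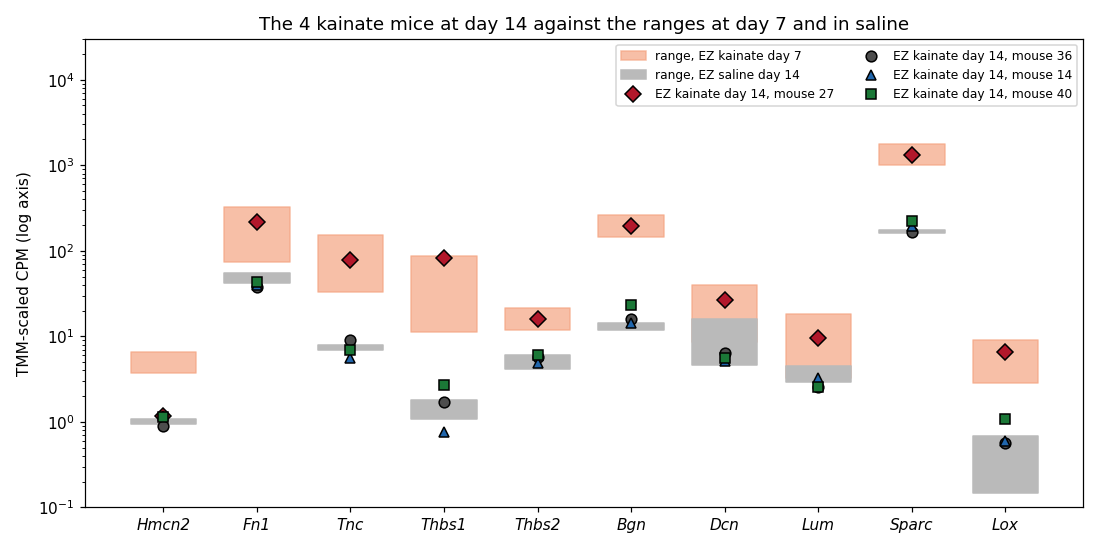
TMM-scaled CPM on a log axis of each gene in the 4 EZ kainate mice at day 14, over bands that span the lowest to highest library of EZ kainate mice at day 7 (orange) and EZ saline mice at day 14 (grey). Mouse 27 (red diamonds) lies inside the orange band for 9 genes, and for Hmcn2 it lies with the other 3 mice near the saline band.

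The kainate mice also took a common order at the earlier days. In the EZ at day 3, mouse 38 was the highest for 9 of 10 members and mouse 44 the lowest for 8, the exceptions being Hmcn2, highest in mouse 42, and Hmcn2 and Thbs2, lowest in mouse 30. At day 7, mouse 23 was the lowest for 7 members and mouse 26 for 3, and the highest were mice 35 (6 members) and 21 (4 members). The summed members were at 2366 CPM in mouse 38 and 1048 in mouse 44. The meningeal fibroblast markers moved with this order, at 351 CPM in mouse 38 and 94.97 in mouse 44, as did mural cell markers (7 genes), at 472 and 231 CPM, and border macrophage markers, at 101 and 28.6 CPM. Granule cell markers went the other way, at 295 and 594 CPM. Astrocyte markers did not follow the order of the members, and ran from 8140 CPM in mouse 42 to 9709 CPM in mouse 44. At day 7, mice 21 and 35 had 402 and 314 CPM of meningeal fibroblast markers where mice 23 and 26 had 71.8 and 90.2 CPM. Microglial markers were at 6485 and 4665 CPM against 1746 and 2485 CPM in the same mice, and granule cell markers at 125 and 231 against 680 and 666 CPM. Astrocyte markers at day 7 ran from 10929 CPM in mouse 26 to 12378 CPM in mouse 23. In the PIZ at day 3 mouse 38 was the lowest of the kainate group for 6 members and the highest for none. The 4 EZ kainate values of Hmcn2 at day 3 lay within 19.3 to 29.3 CPM, while those of Tnc lay within 50.5 to 306 CPM.

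Part of the markers in these lists moved in the EZ, where 16.1% and 20.6% of all genes were upregulated at days 3 and 7. At day 3, 5 of 11 meningeal fibroblast, 5 of 8 endothelial, 5 of 7 mural, 5 of 7 microglial, 4 of 8 border macrophage and 3 of 7 astrocyte markers were upregulated, and at day 7 it was 6, 5, 5, 7, 5 and 4 of them. Of the astrocyte markers 1 was downregulated at day 3. The summed meningeal fibroblast markers in the EZ were at 94.97 to 351 CPM in kainate mice against 48.1 to 75.2 CPM in saline mice at day 3, and at 71.8 to 402 against 46.2 to 55.5 CPM at day 7. The microglial markers were at 1436 to 2486 against 534 to 894 CPM at day 3 and at 1746 to 6485 against 458 to 507 CPM at day 7. No marker of these 6 lists was at 0 throughout a group. Of granule cell markers 3 of 6 were downregulated in the EZ on each of the 2 days, with sums of 295 to 594 against 639 to 789 CPM at day 3 and, overlapping, 125 to 680 against 545 to 890 CPM at day 7, and of CA1 pyramidal cell markers 3 and 4 of 5, where 1841 and 2547 of all 21390 genes were downregulated. In the PIZ at day 3, where 7.12% of all genes were upregulated, all 7 microglial, 3 of 7 astrocyte and 1 of 7 mural cell markers were upregulated, and 2 of 6 granule cell and 1 of 5 CA1 pyramidal cell markers were downregulated, as were 335 of all genes. The choroid plexus markers (7 genes) summed in the EZ to 8.00 to 11.2 CPM in kainate against 17.9 to 22.6 CPM in saline mice at day 3 and to 4.56 to 12.8 against 21.02 to 29.8 CPM at day 7, and of the 4 that could be tested 1 was upregulated and 1 downregulated at day 3 and 0 and 1 at day 7, with median log2 changes of 0.19 and 0.23. Of the 7 markers 1, Folr1, was at 0 in the PIZ of saline mice at day 7. The red blood cell markers (5 genes) summed to 88.2 to 252 CPM over all libraries. The part of these cells in the members' changes was not tested.

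Likeness to Hmcn2 was measured as Pearson's r over the 12 group means of log2 CPM. These means share mice between the sides, and r carries no test. The 5 most alike genes were the pseudogene Hmgn2-ps (r = 0.984), whose reads can come from its parent gene, the nucleoporin Nup188 (0.983), the chromatin remodeller Hells (0.983), the replicative helicase subunit Mcm2 (0.983) and the clamp loader subunit Rfc4 (0.983). Mcm2 was at 24.5, 15.7 and 6.12 CPM in the EZ of kainate mice at days 3, 7 and 14, against 5.68 CPM in saline mice at day 3, and Hells at 10.1, 6.48 and 3.72 against 3.58 CPM. Like Hmcn2 these genes had their highest level at day 3 and were near the day 3 saline level at day 14. Their changes were smaller than that of Hmcn2, since r measures shape and not size. In the EZ at day 3 Hmgn2-ps was at 12.8 CPM in kainate against 7.94 CPM in saline mice, and Nup188 at 34.2 against 21.7 CPM. Among the members, r with Hmcn2 was 0.953 for Fn1, 0.949 for Tnc, 0.932 for Lum, 0.927 for Thbs1, 0.909 for Bgn, 0.897 for Thbs2, 0.818 for Dcn and 0.797 for both Sparc and Lox. Fn1 was the 172nd of all genes in this order and Sparc the 4248th. The closest pair of members was Fn1 and Tnc (0.981), followed by Thbs2 and Bgn (0.976).

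The members were set among 76 related genes in 8 lists, which were also written with earlier results known, and 73 of these were tested. In the EZ 40 of the 73 were upregulated and 4 downregulated at day 3, and 48 and 8 at day 7, where 16.1% and 20.6% of all genes were upregulated and 1841 and 2547 of 21390 downregulated. At day 14 it was 6, Spp1, Ccn1, Ccn5, Loxl2, Loxl3 and Itga5, all upregulated (2.32% of all genes upwards), and these calls were lost without mouse 27. In the PIZ 19 were upregulated and 5 downregulated at day 3 (7.12% of all genes upwards, and 335 of 21390 downwards). With 1 mouse left out, 15 to 22 passed there in either direction, fewer than with all mice. At days 7 and 14 in the PIZ 0 passed with edgeR, where 0.201% and 0.014% of all genes passed in either direction. At an unadjusted p under 0.05 there were 15 and 9 of the 73 (3104 and 1277 of all 21390 genes), and DESeq2 called 3 and 1 (195 and 9 of all genes). The median log2 change over the 73 genes was 1.03 and 1.58 in the EZ at days 3 and 7 and 0.65 in the PIZ at day 3.

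The counts of each list follow, read beside the upregulated share of all genes (in the EZ 16.1% and 20.6% at days 3 and 7), and differences between lists were not tested. Of the other lysyl oxidases and further crosslinking enzymes, set beside Lox, all 8 were upregulated in the EZ at both day 3 and day 7. Among them Plod3, a collagen lysyl hydroxylase, was at 71.3 ± 21.7 CPM in kainate against 25.5 ± 1.33 CPM in saline mice at day 3 (SD, n = 4), a log2 change of 1.48 ± 0.22, and Tgm2, a transglutaminase, changed by 2.03 ± 0.37. Of the 12 receptors, 10 were upregulated on both days, with Itgav, the integrin chain that binds fibronectin, at 1.91 ± 0.24, the syndecan Sdc4 at 1.52 ± 0.23 and the endocytic receptor Lrp1 at 0.83 ± 0.13 at day 3. The receptor that was downregulated at day 7 was Cacna2d1, the thrombospondin receptor of synapses (-0.82 ± 0.22).

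Of 9 other matricellular and adhesive glycoproteins, 7 were upregulated in the EZ on both days. Osteopontin, Spp1, changed by 7.61 ± 1.05 at day 3, with means of 1947 CPM in kainate and 10 CPM in saline mice, and Tgfbi, an integrin-binding collagen partner, by 4.52 ± 0.53, while vitronectin, Vtn, at 0.40 ± 0.16, did not pass. Of the 15 laminins and basement membrane genes, 9 were upregulated at day 3, and 10 were upregulated and 1 downregulated at day 7. Among these was Lamb2 (1.03 ± 0.20 at day 3), while agrin, Agrn, was at 0.20 ± 0.10 and did not pass. Of the 9 relatives of Hmcn2, Fbln2, Efemp1 and Efemp2 were upregulated and Fbn2 was downregulated at day 3, on the EZ as on the PIZ side, and 6 were upregulated and 0 downregulated in the EZ at day 7. Efemp2 changed by 2.31 ± 0.27 in the EZ and 1.90 ± 0.27 in the PIZ, and Fbln2 by 2.69 ± 0.36 and 2.45 ± 0.36. For Hmcn2 these values were 4.78 and 1.98.

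Of the 6 other tenascins and thrombospondins, Tnn was upregulated and Tnxb downregulated in the EZ at day 3, and at day 7 Tnn and Comp were upregulated and Tnxb and Thbs3 downregulated. At day 3 tenascin-R, Tnr, the tenascin of perineuronal nets, was at 362 CPM in kainate and 379 in saline mice (-0.07 ± 0.11). Thbs4 did not pass in the EZ at day 3 (0.47 ± 0.41) and was upregulated in the PIZ (1.48 ± 0.42). Of 7 tested small leucine-rich proteoglycans other than the members, Podn alone was upregulated in the EZ at day 3 (2.07 ± 0.52), and Prelp (-1.05 ± 0.23), Ogn and Ecm2 were downregulated in the PIZ. Fmod was at 1.49 ± 0.65 in the EZ at day 3 and was upregulated at day 7 (2.98 ± 0.68), as were Omd and Podn, while Ogn was downregulated there. Of the 7 SPARC relatives, Fstl1 was upregulated and Sparcl1 and Spock1 were downregulated in the EZ at day 3, Smoc1 and Fstl1 were upregulated and Smoc2, Spock1 and Spock2 downregulated in the EZ at day 7, and Smoc1 was upregulated and Sparcl1 downregulated in the PIZ at day 3. Sparcl1, an astrocyte protein, was downregulated at day 3 in the EZ (797 against 1311 CPM, -0.72 ± 0.14) and in the PIZ (885 against 1418 CPM, -0.68 ± 0.14). Spock2, a neuronal proteoglycan, was downregulated in the EZ at day 7 (-0.84 ± 0.16), when Sparc itself was at its highest.

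**Figure D4:**
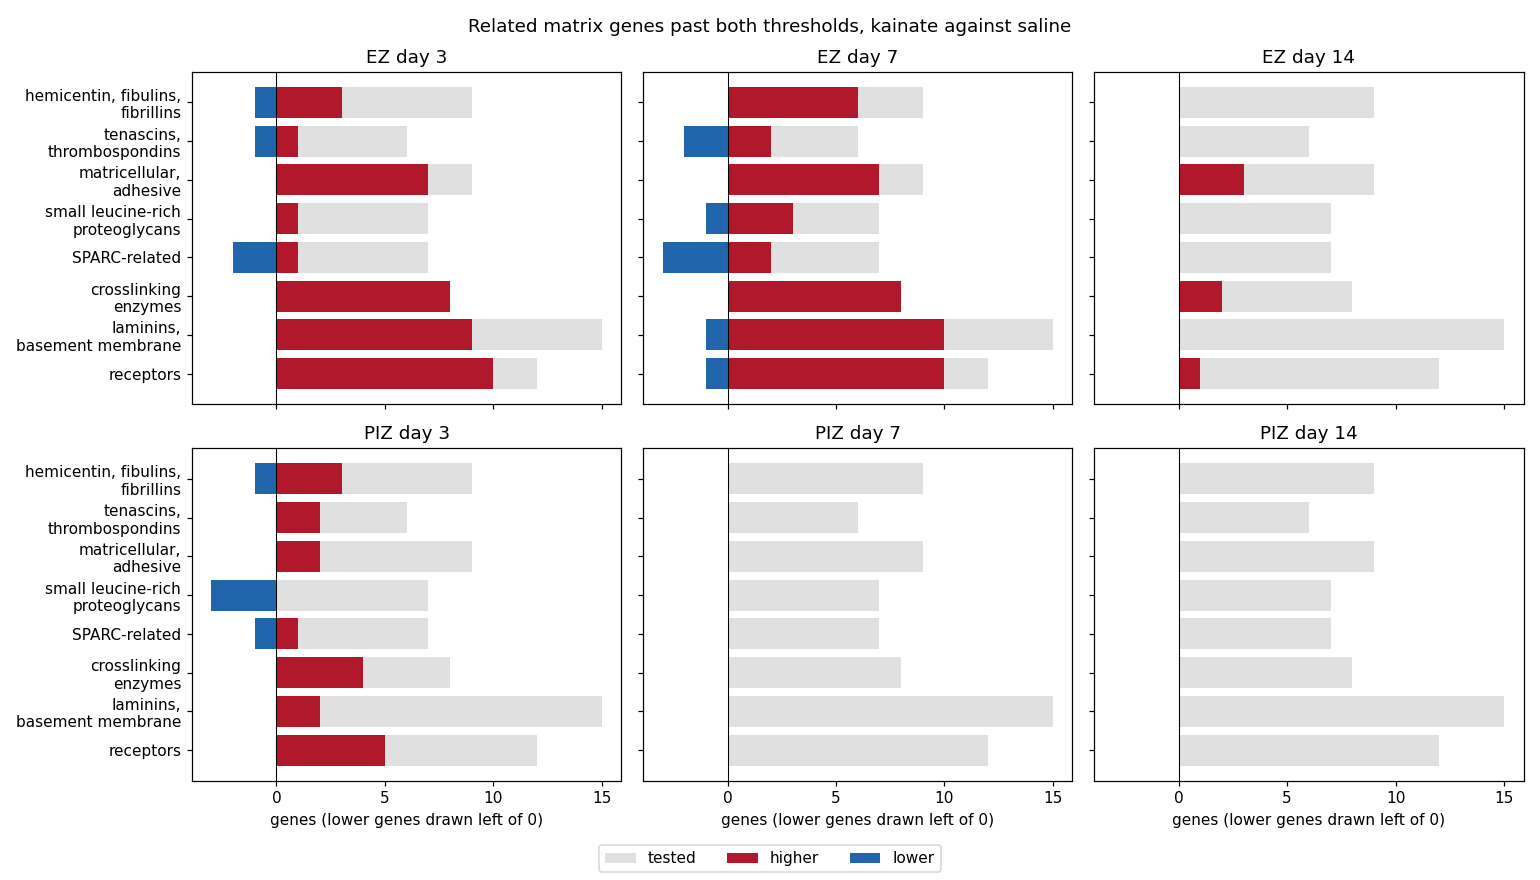
Number of genes in each of the 8 lists of related matrix genes that passed both thresholds in kainate against saline, drawn right of 0 where higher and left of 0 where lower, over the number tested in grey. Crosslinking enzymes and receptors are nearly all red in the EZ at days 3 and 7, and no bar is coloured in the PIZ at days 7 and 14.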

How the data were processed

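Gene counts came from the 48 libraries of 24 mice, grouped by side, injection and day as labelled. The deposited values are raw read counts per gene. Per the study's methods and the submitters' processing notes, the authors prepared stranded poly-A libraries, trimmed paired reads with fastp 0.20.1, aligned them to GRCm39 with HISAT2 2.2.1 and counted reverse-stranded reads in exons with featureCounts (Subread 1.6.4), keeping multimapping reads at their primary alignment, so genes with near-identical copies are uncertain.

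The members and the lists of related and marker genes were chosen with earlier results of these data known. Counts were fitted with edgeR 4.0.16 (R 4.3.3): filterByExpr, TMM scaling, 12 group means over all 48 libraries and the quasi-likelihood F test with Benjamini-Hochberg adjustment over 21390 genes of a contrast. Passing means a fold change over 1.5 together with an adjusted p below 0.01. Standard errors are the log2 change divided by the root of F. RPKM used the union of exons in Gencode annotation. The EZ and PIZ libraries of a mouse come from the same animal by the labels, and the correlation of their residuals was -0.054 to 0.376 over mice. The consensus correlation of the libraries of a mouse, a separate estimate from limma, was 0.163. Named genes were the 10 members, in each list the 2 genes with the highest level per length and the gene whose day 3 EZ p was lowest, the 5 genes most like Hmcn2, and genes of counts up to 5. The text leaves out some of the genes that this rule names. Alternatives were DESeq2 1.42.0, RLE size factors, no count filter, the compared groups alone, the mouse as a block (limma 3.58.1 or edgeR) and each mouse left out. The test was also tried on simulated counts, whose levels and spread were taken from these data. The precision is set by 4 mice a group and 17762656 to 25712975 counts a library.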

Additional observations from a re-analysis of the deposited data

Results flagged for a closer look

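Some single libraries stood apart from the other 3 of their group. Of 120 combinations of a member and a group, 11 had such a library. The rule took the gap to the nearest other library over the range of the group, in log2 CPM. By chance it flags about 1 in 20 groups for a single gene. The 120 combinations share libraries and the members are correlated, so the 11 cannot be read against that rate. Mouse 27 accounted for 4 of the 11 in the EZ of kainate mice at day 14, with 220 CPM of Fn1, 15.9 CPM of Thbs2, 26.6 CPM of Dcn and 1331 CPM of Sparc. Thbs1, Tnc, Bgn and Lox were not flagged by this rule, although the ratios of mouse 27 to the other 3 mice were larger there (48.4, 10.8, 10.7 and 8.63). A wide spread among the other 3 mice on the log2 scale keeps a library from being flagged. The lack of a flag thus does not mean that mouse 27 was near them. For Hmcn2 in the same group the flagged library was that of mouse 36, low at 0.899 CPM. In kainate mice, Hmcn2 was high in the PIZ of mouse 30 at day 3 (4.14 CPM), Tnc was high in the PIZ of mouse 23 at day 7 (13.9 CPM), and Thbs1 was low in the EZ of mouse 44 at day 3 (8.80 CPM). In saline mice, Sparc was high in the EZ of mouse 39 at day 14 (174 CPM), in the PIZ of mouse 18 at day 3 (270.4 CPM) and in the PIZ of mouse 39 at day 14 (298 CPM). The last 2 libraries were also those with high Dcn.

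Some effects differed between sides or days by the test of the difference itself. The Hmcn2 change was larger in the EZ than in the PIZ by 2.80 on the log2 scale at day 3 and by 1.52 at day 7, and its EZ change differed by -2.21 from day 3 to day 7 and by -2.42 from day 7 to day 14. The EZ change exceeded the PIZ change at day 7 by 3.27 for Tnc and by 2.75 for Bgn. The day 7 calls did not hold throughout: that of Hmcn2 was lost in 7 of 8 fits with 1 mouse left out and with the mouse as a block, and those of Tnc and Bgn in 6 of 8. The steps between days were lost in 6 and 11 of 16 such fits, and the day 3 call in 0 of 8. With only the compared groups fitted, the day 3 call and both steps were lost.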

How the results depend on the processing

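Among the refits of each member's kainate against saline changes, and of the differences between sides or days that a member passed in the report, 774 kept their side of the thresholds, 90 lost a call, 8 gained one and 0 reversed a called one. Differences that a member did not pass in the report are outside this tally, so gains among them are not in the 8. Of the members called, fitting only the compared groups left 0 in the EZ at day 14 (3 in the report), 6 in the PIZ at day 3 (3), 1 in the PIZ at day 7 (0), 0 for the difference between the sides at day 3 (1), and 0 for each step between days (1 and 1). DESeq2 called 5 members in the PIZ at day 3 and 6 for the difference between the sides at day 7 (3). With the mouse as a replicate block, 0 members were called in the EZ at day 14 and 8, 8 and 4 in the EZ at days 3 and 7 and the PIZ at day 3, and beside the losses given in the report Sparc was gained in the PIZ at day 3 (1.17). Over all genes, 504 were called in the EZ at day 14 in the report and 0 both with the compared groups alone and with the block, and in the PIZ at day 3 it was 1858, with 2284 for the compared groups, 2086 with DESeq2 and 1562 with the block. With the compared groups alone 3847 genes were called in the EZ at day 7 (6960), 1159 for the difference between the sides at day 7 (2115) and 0 for the step from day 7 to day 14 (58), which had 898 with DESeq2, 36 with the block and 4 with no count filter. Of the related genes, 0 passed in the EZ at day 14 with the compared groups alone, 0 with the block and 10 with DESeq2 (6 in the report). In the PIZ, 3 passed at day 7 with the compared groups alone and 3 with DESeq2, and 1 at day 14 with DESeq2 (0 in the report). Leaving out 1 mouse, the members called ran from 7 to 10 in the EZ at day 3, 9 to 10 at day 7, 0 to 4 at day 14, 2 to 3 in the PIZ at day 3, 0 to 4 for the difference between the sides at day 7, 0 to 1 for the step from day 3 to day 7 and 0 to 9 for that from day 7 to day 14. The related genes ran from 0 to 12 in the EZ at day 14 and 15 to 22 in the PIZ at day 3. The cause of these changes was not tested. Low counts limit Hmcn2, with 8 to 27 counts in a saline library, and Lox.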
